A study of Mus musculus with 9 samples.

Results

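P3 glioblastomas of mice fed the high doxycycline (DOX) diet were compared with P3 glioblastomas of mice fed the low-DOX diet, on 6 of the 9 arrays of the series. The arrays were chosen by their titles, 3 for each diet, and all 22180 genes with a probe set naming 1 gene were members of the comparison. The tumors of both groups arose in adult mice that carry a conditional human PDGFRα transgene (hPDGFRα) behind a floxed stop, driven by the broadly active CAG promoter and knocked into Col1a1, together with floxed p53. A lentivirus injected into the striatum gave constitutive Cre and DOX-inducible human PDGF-A to the cells it infected. Receptor expression and p53 loss are therefore shared by both diets, and the diets differ in how strongly the ligand was induced, at 600 mg/kg DOX (as labelled) for high DOX and 25 mg/kg for low DOX. DOX dose and PDGF-A level cannot be told apart here. The paper also reports that every high-DOX P3 mouse died of a brain tumor. With low DOX only part of the mice did, after a longer median survival. The diets therefore also differ in the time to end stage and in which mice reached it, and the part of this in the results was not tested. The remaining 3 arrays are OPC lesions (OPC, oligodendrocyte precursor cell), labelled hPDGFRα;p53 and 600 mg/kg DOX. The study's supplement describes lesions of this kind in floxed-p53 mice without the receptor transgene, made of endogenous precursors that had kept p53, so label and description differ. These arrays entered the fit for its estimate of the spread and are given as values only. The samples were whole pieces of frozen end-stage tumor, the age of each mouse is not given in the sources used here, and fewer cells of a type and less RNA per cell cannot be told apart in them.

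PDGF-A is the ligand of PDGFRα, a receptor tyrosine kinase that keeps oligodendrocyte precursors dividing and delays their differentiation into myelin-forming cells. Its signal runs through the RAS-MAPK cascade, which switches on its own inhibitors, the Sprouty and Spred genes. Glioblastomas also hold cells that are not tumor cells, among them microglia, macrophages from the blood and the brain borders, vessels, and neurons of the brain they invade.

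RNA was hybridised to Affymetrix Mouse Gene 2.0 ST arrays, and the deposited log2 signals were used as given. Values given in a row of 3 are those of replicates 1, 2 and 3, and every difference is high minus low DOX on the log2 scale, with its standard error (SE) and, where given, the adjusted p from limma over 9 arrays. A group whose mean lay at or below the median of all genes in its arrays (5.67 with high DOX, 5.63 with low DOX) is called low signal. It was not shown to be above background, and no fold is given for it.

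The arrays differed in the tissue they held, within each diet as well as between the diets. High-DOX replicate 1 had the highest mean signal of striatal neuron genes. High-DOX replicate 2 had the highest signal of cortical-type neuron genes and was the array with choroid plexus, with Ttr, the transthyretin gene of that tissue, at 12.46 against 4.68 to 5.32 in the other 8 arrays. High-DOX replicate 3 was poor in neuron genes and rich in mitotic ones. Among low-DOX tumors, replicate 1 was the highest in myelin, T cell and interferon genes, and replicate 3 in fibroblast genes. The 6 P3 arrays had Xist between 3.19 and 3.65 and expressed the Y-linked genes Eif2s3y, Kdm5d and Uty (5.36 to 8.67), a male pattern in both diets, whereas OPC lesion replicate 2 had Xist at 9.38. The red cell list had 1 measured gene, Slc4a1, between 4.60 and 5.02 in the P3 arrays. In the first principal component of the 6 P3 arrays, with 47.9% of the variance, the scores were 36.6, 86.6 and -1.41 with high DOX and -45.4, -26.1 and -50.2 with low DOX. The part of these tissues in the results below was not tested, and list medians that 1 array moved strongly are given without it, with the whole range over the 6 P3 arrays in the plot of list medians.

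**Figure D1:**
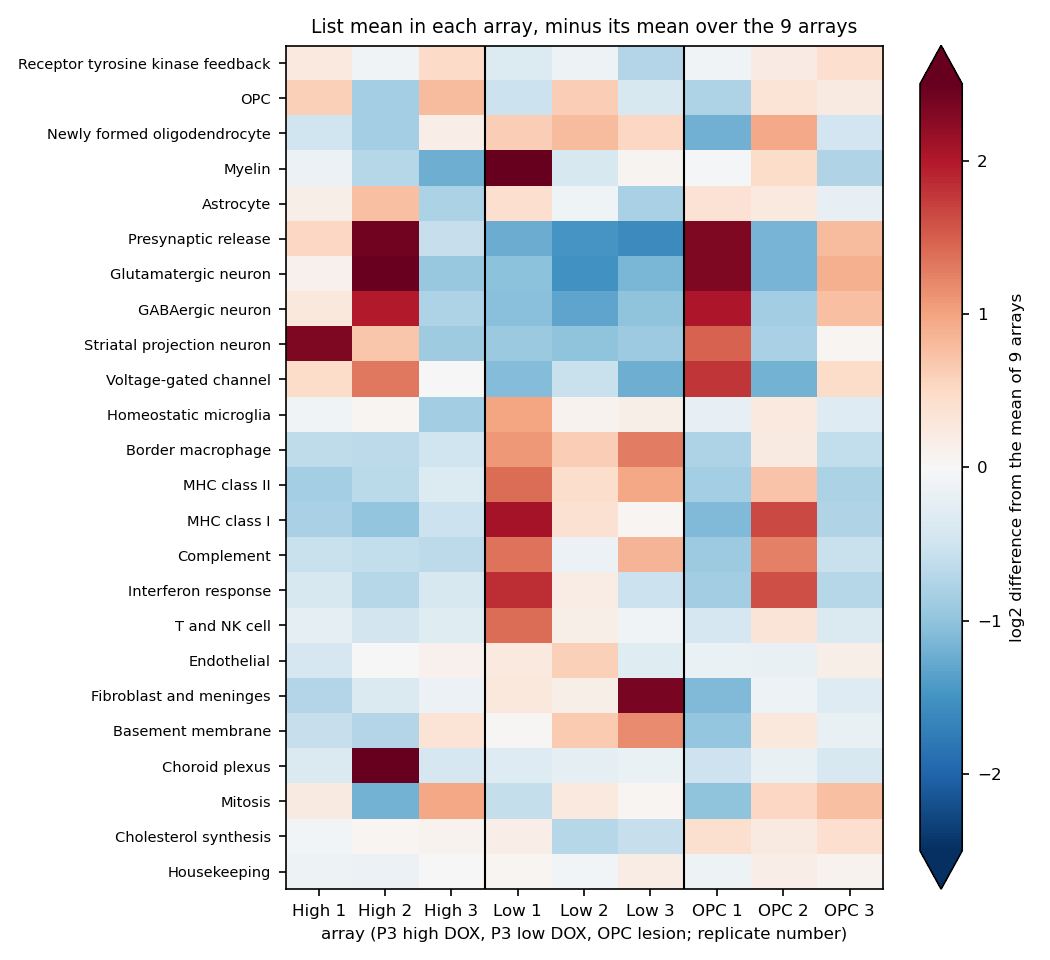
Mean log2 signal of 24 gene lists (rows) in each of the 9 arrays (columns: P3 high DOX, P3 low DOX and OPC lesion, replicates 1 to 3), minus the list's mean over the 9 arrays. Choroid plexus genes stood out in high-DOX replicate 2, myelin and T cell genes in low-DOX replicate 1 and fibroblast genes in low-DOX replicate 3, and macrophage and MHC lists were lower in each high-DOX array than in each low-DOX array.

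No gene passed an adjusted p of 0.05 between the diets, with 0 higher (0%) and 0 lower (0%) after Benjamini-Hochberg adjustment over 22180 genes. The unadjusted p was under 0.05 for 1164 genes with their higher mean in high-DOX tumors (5.25%) and for 1084 with their lower mean there (4.89%). All 3 high-DOX values lay above all 3 low-DOX values for 1825 genes (8.23%) and below them for 1722 (7.76%). Among the 17824 probe sets that do not name 1 gene, which are not counted here, 276 were higher and 1039 lower at an unadjusted p under 0.05, and 2 passed an adjusted p of 0.05. The shares of genes are the background against which the counts below are read. The lists were chosen with earlier results of these data known, so a larger share in a list is described and was not tested. The median difference over all genes was -2.1e-04 and the median absolute difference 0.18. Subtracting from each array its own median over the whole probe set table moved the median gene by 0.11, and the unadjusted counts were then 2025 higher and 588 lower. Without both high-DOX replicate 2 and low-DOX replicate 3 they were 590 and 579, and without high-DOX replicate 2 and low-DOX replicate 1 they were 878 and 702. Leaving out 1 array, the higher count was least without low-DOX replicate 3 (656) and the lower count without high-DOX replicate 1 (712). As none passed the adjusted test, higher and lower describe measured values throughout.

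**Figure D2:**
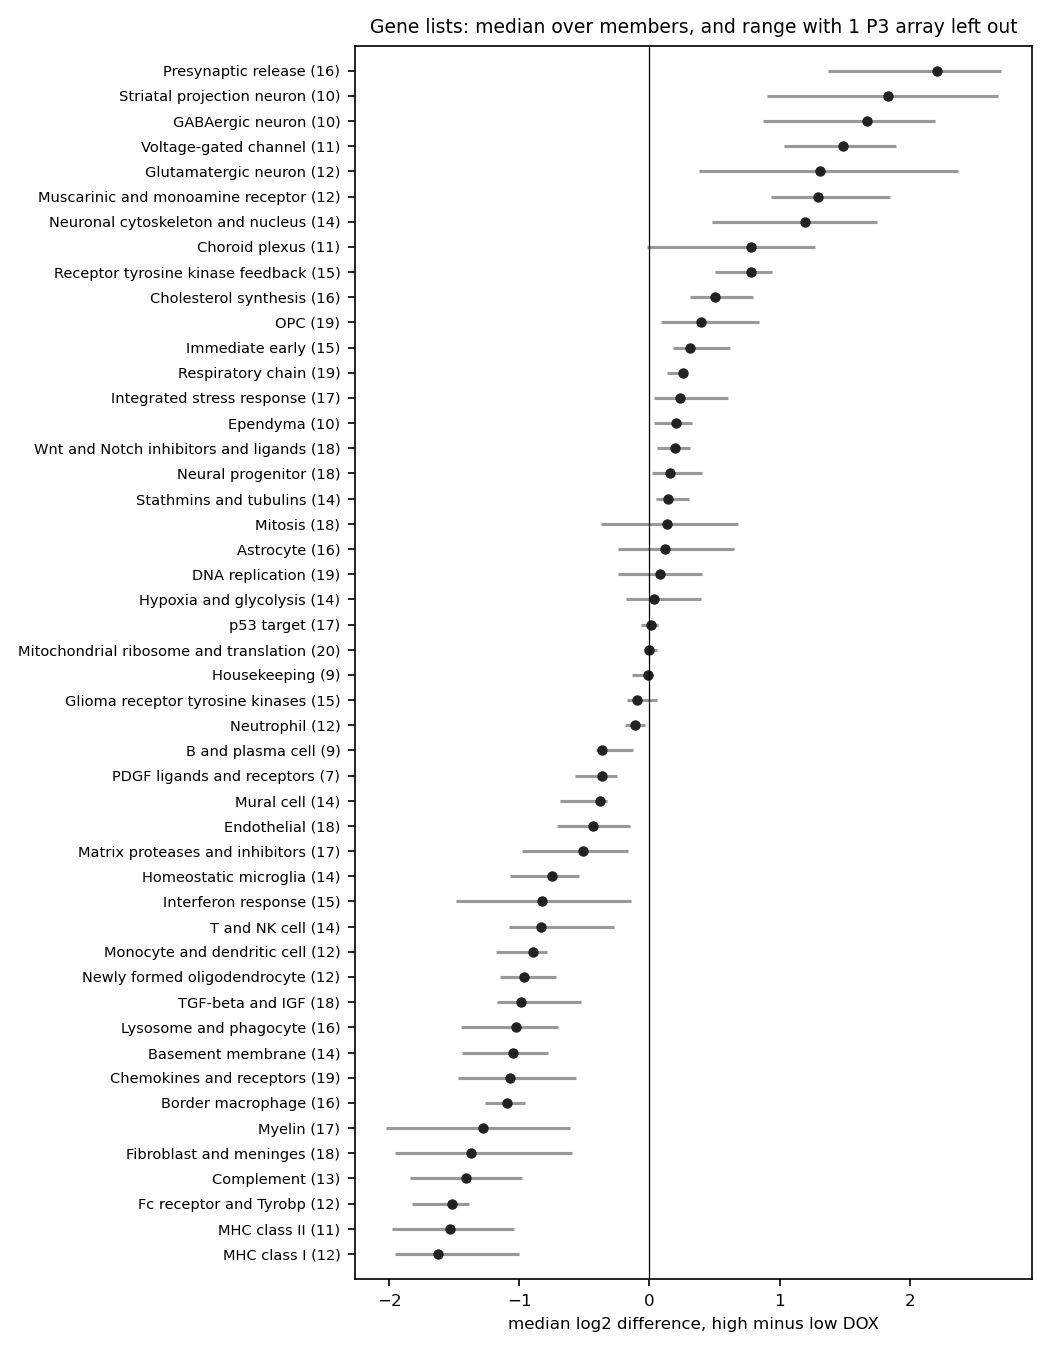
Median log2 difference (high minus low DOX, x axis) of 48 gene lists, with the number of measured genes in parentheses. Points are the medians over 6 P3 arrays and grey lines the range of the median with each of the 6 left out in turn; the lists run from the MHC classes, at -1.63 and -1.53, to presynaptic release, at 2.21.

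The 10 genes with the smallest p among those higher with high DOX without overlap were Tmem179, Gng3, Rpp25, Flrt3, Mir9-2, Tom1l1, Bhlhb9, Igf1r, Dpp6 and Slc1a4. Their adjusted p ran, together with those of the 10 lower genes, from 0.186 to 0.376. Tmem179, which encodes a transmembrane protein, had values of 8.04, 8.75 and 8.39 with high DOX and 6.39, 5.89 and 6.10 with low DOX, a difference of 2.27 (SE 0.263, adjusted p = 0.186). Gng3, a G protein γ subunit of neurons, had the tightest groups, at 10.42, 10.52 and 10.51 with high DOX and 9.55, 9.46 and 9.45 with low DOX. It was 1.99-fold higher (0.99, SE 0.126). In both genes the neuron-poor high-DOX replicate 3 lay between the other two high-DOX tumors.

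Rpp25, a subunit of the RNA-processing enzyme RNase P, had 7.41, 7.70 and 7.32 with high DOX and 5.64, 5.52 and 4.97 with low DOX, where it was low signal. Flrt3, an adhesion protein of axons and synapses, had 6.71, 6.46 and 6.37 with high DOX and 5.15, 5.21 and 5.50 with low DOX. Igf1r, the IGF-1 receptor, was 2.11-fold higher (1.07, SE 0.165), with 8.74, 8.71 and 8.42 in high-DOX tumors and 7.30, 7.76 and 7.57 in low-DOX tumors. For 9 of these 10 genes all 3 OPC lesions also lay above all 3 low-DOX tumors. The exception was Igf1r, at 7.99, 7.62 and 7.89 in the lesions. How often this pattern holds among all genes was not counted. The 10 genes were also ranked by a fit whose spread includes the lesions, so their position is described only. Slc1a4, a transporter of serine and other neutral amino acids, had 8.83, 9.21 and 8.37 with high DOX and 7.51, 7.35 and 7.21 with low DOX. The adaptor gene Tom1l1 has a second probe set, at low signal, whose group means were 4.72 with high DOX and 4.71 with low DOX, while the one used gave 0.98.

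**Figure D3:**
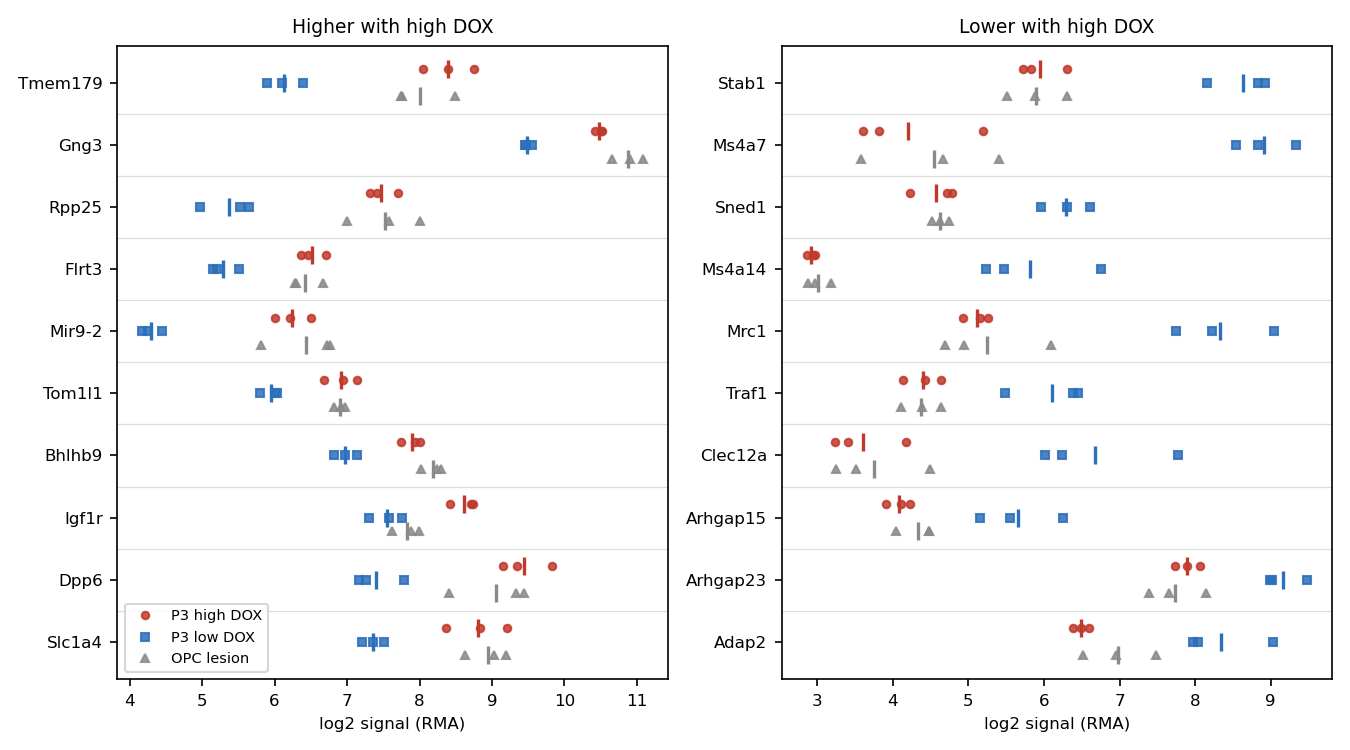
Log2 signal (x axis) of the 10 genes with the smallest p in each direction among those whose diets did not overlap, in P3 high-DOX (red circles), P3 low-DOX (blue squares) and OPC lesion arrays (grey triangles). Each symbol is 1 array and each vertical tick a group mean; for Ms4a7 the 3 high-DOX arrays lay between 3.61 and 5.20 and the 3 low-DOX arrays between 8.54 and 9.34.

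The microRNA genes Mir9-2 and Mir219a-2 differed in opposite directions. Mir9-2 is one of the 10 higher genes above, whereas Mir219a-2 is not among the 10 lower genes and was picked with its values in view. The array probes read precursor or host RNA, not the mature molecule, so the mature sequences are shown only to identify what each locus encodes. They are from RefSeq (build GRCm38.p6), with the seed, bases 2 to 8, in capitals. The first line is made by all 3 miR-9 loci and the last by both miR-219a loci.
miR-9-5p: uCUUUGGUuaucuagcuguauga
miR-9-3p: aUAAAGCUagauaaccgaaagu
miR-219a-5p: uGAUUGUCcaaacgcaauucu

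Mir9-2, one of the 3 miR-9 loci, lies on chromosome 13, where the mature 5p arm spans chr13:83738821-83738843 on the plus strand (GRCm38.p6). Its values were 6.01, 6.21 and 6.50 with high DOX and 4.45, 4.25 and 4.17 with low DOX, where it was low signal (1.95, SE 0.265, adjusted p = 0.196). In RefSeq the gene falls within the long noncoding RNA gene C130071C03Rik, which had 7.11, 6.82 and 7.29 with high DOX and 5.0, 6.64 and 6.04 with low DOX, also without overlap (1.18, SE 0.442). The other loci of the same mature sequence did not follow alike. Mir9-1 (chromosome 3) had a difference of 0.89 (SE 0.515, adjusted p = 0.584) with overlapping diets, and Mir9-3 (chromosome 7), at low signal in both diets, 0.05 (SE 0.24). miR-9 is known as a microRNA of neural progenitors and neurons.

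Mir219a-2 lies on chromosome 2, with the mature 5p arm at chr2:29845689-29845709 on the minus strand, and miR-219 is known for its part in oligodendrocyte maturation. It had 5.42, 5.40 and 6.28 with high DOX and 8.60, 7.98 and 7.45 with low DOX, without overlap and 4.95-fold lower with high DOX (-2.31, SE 0.621, adjusted p = 0.384). Mir219a-1 on chromosome 17, which encodes the same 5p sequence, was at low signal in both diets (-0.01, SE 0.118). Of 467 microRNA genes measured, 402 were at low signal in both diets. At an unadjusted p under 0.05, 6 were higher and 8 lower, smaller shares than the 5.25% and 4.89% of all genes. Only Mir9-2, Mir139, Mir1963 and Mir219a-2 of these were above low signal in the brighter diet. These were chosen after their values were seen, beyond Mir9-2.

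The 10 genes with the smallest p among those lower with high DOX were Stab1, Ms4a7, Sned1, Ms4a14, Mrc1, Traf1, Clec12a, Arhgap15, Arhgap23 and Adap2. Several of them are genes of macrophages. Stab1, a scavenger receptor of macrophages and sinusoidal endothelium, had 5.83, 5.72 and 6.31 in high-DOX tumors and 8.92, 8.15 and 8.83 in low-DOX tumors, and was 6.42-fold lower (-2.68, SE 0.283, adjusted p = 0.186). Ms4a7, a tetraspan gene of border and infiltrating macrophages, had 3.82, 3.61 and 5.20 with high DOX, at low signal, and 9.34, 8.54 and 8.84 with low DOX. Mrc1, the mannose receptor, had 5.16, 5.26 and 4.93 with high DOX and 8.22, 7.74 and 9.04 with low DOX. All 3 low-DOX tumors carried these genes, and the gap between the diets exceeded the whole range within either.

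Clec12a, an inhibitory lectin of myeloid cells, had 4.18, 3.41 and 3.23 with high DOX and 7.77, 6.23 and 6.01 with low DOX. Ms4a14 had 2.86, 2.97 and 2.94 with high DOX and 5.47, 5.23 and 6.75 with low DOX. Without low-DOX replicate 3, the low-DOX tumor furthest from the rest, its adjusted p was 0.0162 (limma), which follows from leaving out that value. In 7 of the 10 genes the high-DOX mean was at low signal, so the fitted differences understate any change there. In all 10 the 3 OPC lesions lay below the 3 low-DOX tumors, again without a count over all genes to set it against. Arhgap23 was above low signal in both diets, at 7.74, 7.89 and 8.06 with high DOX and 9.48, 8.99 and 9.01 with low DOX (-1.26, SE 0.221), as was Adap2, an Arf GTPase-activating gene, at 6.38, 6.59 and 6.49 with high DOX and 9.03, 8.04 and 7.97 with low DOX (-1.86, SE 0.329). The secreted matrix protein gene Sned1 (-1.72, SE 0.205) and Traf1 (-1.70, SE 0.281), an adaptor of TNF receptors, were likewise without overlap.

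The PDGF system itself showed no member at an unadjusted p under 0.05. Pdgfra had 12.57, 11.29 and 12.96 with high DOX and 9.90, 12.60 and 11.02 with low DOX, and the diets overlapped. Mouse Pdgfa likewise overlapped, at 6.92, 7.12 and 7.02 with high DOX and 7.63, 7.02 and 7.32 with low DOX (-0.30, SE 0.267). The probes were designed on mouse sequence, and how far they read the human transgenes is not known. The largest difference among the 7 genes was that of Pdgfrb, a receptor of mural cells and fibroblasts, at -1.20 (SE 0.557).

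Several feedback genes downstream of receptor tyrosine kinases were higher with high DOX. Of 15 genes, 12 had a difference above 0 with a median of 0.78, and 4 were at an unadjusted p under 0.05, all higher: Spred3, Spred2, Etv5 and Spry4. Spred3 and Spred2, inhibitors of RAS-RAF signaling, did not overlap between the diets. Spred3 had 8.83, 8.36 and 8.44 with high DOX and 7.66, 7.79 and 7.23 with low DOX, and was 1.98-fold higher (0.98, SE 0.222, adjusted p = 0.376). Spred2 had 8.98, 9.68 and 9.30 with high DOX and 8.20, 8.63 and 8.56 with low DOX (0.86, SE 0.231). Spry4, a Sprouty inhibitor, had 9.53, 7.94 and 9.54 with high DOX and 6.61, 8.86 and 6.10 with low DOX (1.82, SE 0.742), so that low-DOX replicate 2 lay within the high-DOX range. Lrig1, a membrane inhibitor of receptor tyrosine kinases, was the 1 gene of the list lower without overlap, with 7.16, 8.26 and 7.94 with high DOX and 9.46, 8.47 and 8.33 with low DOX (-0.97, SE 0.533). The transcription factor Etv5 gave 1.01 (SE 0.396), and its second probe set 0.15. Without low-DOX replicate 3 the median of the list was 0.50. The paper found no significant difference in phospho-PDGFRα between tumors of the diets by western blot. Whether the feedback genes follow receptor activity was not tested. Among 15 other receptor tyrosine kinases of glioma the median was -0.09, which was 0.06 without high-DOX replicate 3. Ntrk2, the BDNF receptor, had 8.91, 9.89 and 9.06 with high DOX and 8.11, 7.97 and 6.68 with low DOX (1.70, SE 0.476), while Axl, a receptor of phagocytes and mesenchymal glioma cells, lay at -1.13 (SE 0.517), without overlap on the lower side.

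Within the oligodendrocyte lineage, myelin genes were lower with high DOX and OPC genes showed no direction beyond the background. The 19 OPC genes had a median of 0.40, with 11 above 0, 8 below 0, 0 without overlap and only Chst11, a chondroitin sulfotransferase, at an unadjusted p under 0.05 (1.07, SE 0.441). Without low-DOX replicate 3 that median was 0.09, and without high-DOX replicate 2 it was 0.85. Cspg4, the NG2 proteoglycan gene, had 9.94, 7.89 and 9.65 with high DOX and 6.65, 8.88 and 7.55 with low DOX. Olig2 (0.47, SE 0.441) and Sox10 (-0.32, SE 0.614), the lineage transcription factors, overlapped between the diets.

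Genes of newly formed oligodendrocytes were lower with high DOX in 11 of 12 cases, with a median of -0.97, with 1 at an unadjusted p under 0.05 and 5 without overlap. Enpp6, a phosphodiesterase that marks newly forming oligodendrocytes, had 5.11, 7.75 and 8.23 with high DOX and 10.81, 10.27 and 9.33 with low DOX (-3.10, SE 1.34, adjusted p = 0.493). Bmp4, a secreted factor of committed precursors, had 7.46, 7.01 and 8.42 with high DOX and 9.04, 9.65 and 9.32 with low DOX. Cnksr3, a scaffold gene, was 3.05-fold lower (-1.61, SE 0.567, adjusted p = 0.433), and the transcription factor Tcf7l2 lay at -1.20 (SE 0.61).

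All 17 measured myelin genes had a difference below 0, with a median of -1.28, 5 of them at an unadjusted p under 0.05 and 7 without overlap. Myrf, the transcription factor that turns on myelin genes, had 8.12, 7.48 and 8.69 with high DOX and 10.93, 10.17 and 10.19 with low DOX, and was 5.04-fold lower (-2.33, SE 0.709, adjusted p = 0.413). Cldn11, a tight junction protein of myelin, had 9.33, 9.22 and 10.39 with high DOX and 12.74, 11.25 and 11.40 with low DOX (-2.15, SE 0.72). Mbp, myelin basic protein, had 8.64, 8.34 and 8.37 with high DOX and 10.12, 9.57 and 9.15 with low DOX (-1.16, SE 0.497). All 17 myelin genes were highest in low-DOX replicate 1, by a wide margin in some. Mog, of the outer myelin surface, had 7.12, 6.92 and 5.85 with high DOX and 11.41, 7.22 and 7.51 with low DOX. Without low-DOX replicate 1 the list median was -0.61.

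**Figure D4:**
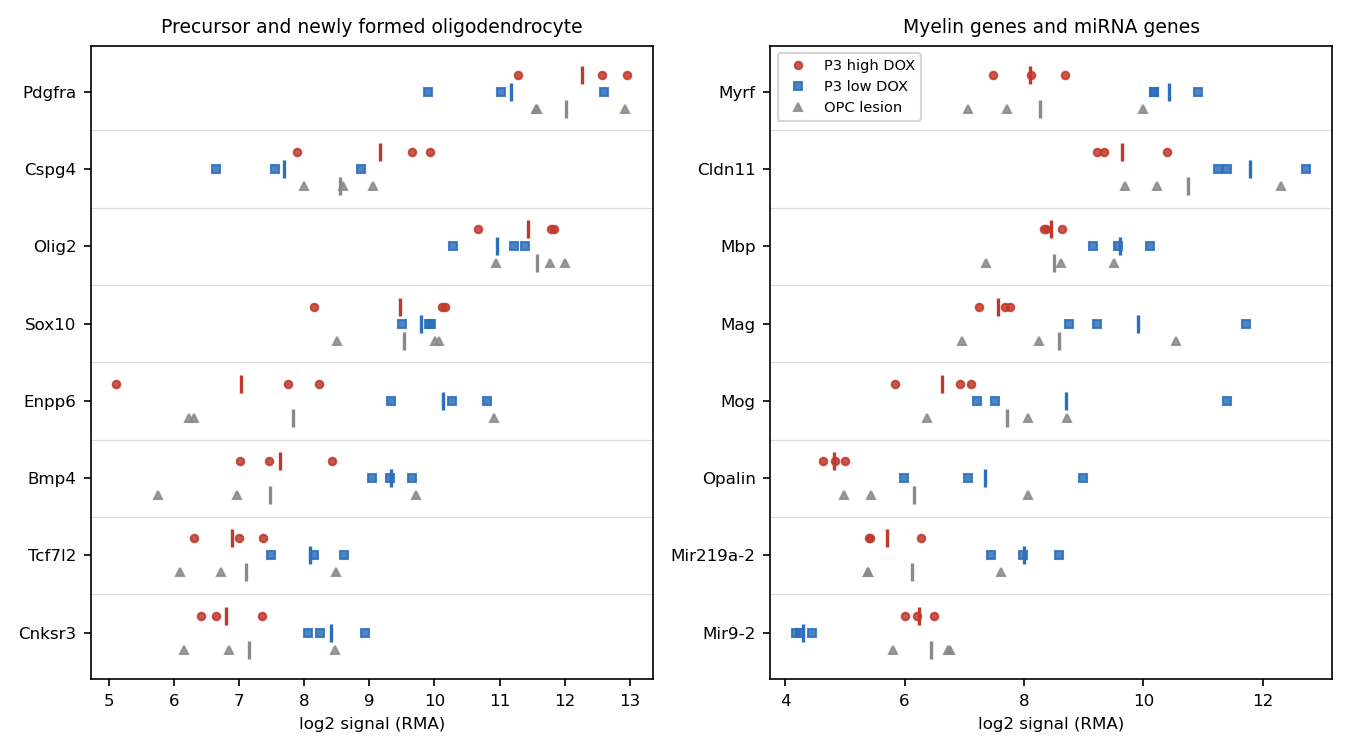
Log2 signal (x axis) of oligodendrocyte lineage genes and of Mir219a-2 and Mir9-2 in P3 high-DOX (red circles), P3 low-DOX (blue squares) and OPC lesion arrays (grey triangles), 1 symbol an array, with ticks for group means. Pdgfra, Cspg4, Olig2 and Sox10 overlapped between the diets, while Enpp6, Bmp4, Myrf, Cldn11 and Mir219a-2 were lower in all 3 high-DOX arrays.

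Id3 and Id1, inhibitors of differentiation that respond to BMP and TGF-β, were lower with high DOX. Id3 had 7.90, 7.79 and 7.78 with high DOX and 8.78, 9.06 and 9.11 with low DOX, 2.23-fold lower (-1.16, SE 0.287, adjusted p = 0.376). Id1 had 5.93, 5.77 and 6.05 with high DOX and 6.57, 6.60 and 6.48 with low DOX (-0.64, SE 0.183). The neural progenitor list, which holds both, had a median of 0.16 over 18 genes (0.02 without high-DOX replicate 1 and 0.40 without replicate 2), and Dcx, a microtubule protein of neuroblasts, was higher at 1.27 (SE 0.506). The 16 astrocyte genes had a median of 0.12, which was -0.24 without high-DOX replicate 2 and 0.65 without replicate 3, with Slc1a3, a glutamate transporter, at 0.82 (SE 0.344). Gfap, with 9.26, 9.26 and 6.49 with high DOX and 10.21, 9.13 and 8.41 with low DOX, overlapped.

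Neuronal genes were higher with high DOX, but unevenly so over the 3 tumors. All 16 genes of presynaptic release were above 0 with a median of 2.21, 12 of them without overlap and 6 at an unadjusted p under 0.05. Among the high-DOX tumors every one of the 16 was highest in replicate 2. Snap25, a SNARE protein of synaptic vesicle fusion, had 11.43, 12.81 and 9.22 with high DOX and 8.0, 6.78 and 6.67 with low DOX (4.0, SE 1.39). Rbfox3, the NeuN gene, had 8.27, 10.01 and 6.78 with high DOX and 6.14, 6.11 and 6.20 with low DOX. The medians were 1.19 for 14 genes of the neuronal cytoskeleton and nucleus, 1.31 for 12 glutamatergic genes and 1.67 for 10 GABAergic genes. Without high-DOX replicate 2 these medians were 1.37 for presynaptic release, 0.48 for the cytoskeleton, 0.38 for glutamatergic and 0.88 for GABAergic genes.

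The neuron genes with the highest signal differed from tumor to tumor. Slc17a7, the vesicular glutamate transporter of cortex and hippocampus, had 5.18, 11.75 and 6.25 with high DOX and 5.79, 4.90 and 5.27 with low DOX, high in 1 tumor. Drd2, a dopamine receptor of striatal projection neurons, had 9.05, 5.39 and 4.60 with high DOX and 4.18, 4.48 and 3.90 with low DOX, and was high in another. Of the 10 striatal genes, 9 were highest in replicate 1 among the high-DOX tumors, and the list mean there was 8.51, with 6.88 and 5.29 in replicates 2 and 3 and 5.25, 5.18 and 5.27 with low DOX. The list median of 1.83 was 0.90 without high-DOX replicate 1. In high-DOX replicate 3, 4 of the 10 striatal and 4 of the 12 glutamatergic genes lay above all low-DOX tumors.

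Other neuronal lists had more members above all low-DOX tumors in high-DOX replicate 3, with 12 of 16 presynaptic release genes, 9 of 11 voltage-gated channel genes and 8 of 12 muscarinic and monoamine receptor genes. Among the high-DOX tumors, 9 of the 11 channel and 10 of the 12 receptor genes were highest in replicate 2. Chrm3, a muscarinic acetylcholine receptor, had 7.30, 7.02 and 7.52 with high DOX and 3.80, 3.99 and 4.32 with low DOX, at low signal (3.24, SE 0.944, adjusted p = 0.405). Without OPC lesion replicate 2 in the fit its adjusted p was 0.0132 (limma). That lesion, at 3.76, lay far from the other lesions, at 7.75 and 7.57, so the smaller p follows from leaving it out. Scn1a, a sodium channel, had 7.03, 7.40 and 7.0 with high DOX and 3.58, 5.14 and 4.0 with low DOX (2.91, SE 0.924). Gria2, an AMPA receptor subunit, had 11.27, 11.22 and 10.75 with high DOX and 9.24, 10.35 and 10.07 with low DOX (1.19, SE 0.409). In these 3 genes, chosen with their values in view and with Gria2 from the glutamatergic list, the high-DOX tumors lay close together, but other members spread more widely. Htr1b, a serotonin receptor, had 8.17, 6.59 and 5.42 with high DOX and 4.83, 4.60 and 5.36 with low DOX. The channel list had a median of 1.49 with 9 of 11 genes without overlap, and the receptor list 1.30 with 8 of 12. Without high-DOX replicate 2 the medians were 1.04 and 0.93.

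The A-type potassium channel is built of Kv4 pore subunits, the KChIP proteins (Kcnip genes) and the Dpp6 or Dpp10 proteins. Of the 9 genes of the complex, a set put together after Dpp6 and Kcnd2 had been seen, 9 were above 0 and 5 were without overlap. Kcnd2, a pore subunit, had 10.69, 9.83 and 10.28 with high DOX and 7.82, 9.11 and 8.23 with low DOX, 3.67-fold higher (1.88, SE 0.556). Kcnd3, another pore subunit, had 8.04, 8.49 and 7.66 with high DOX and 6.57, 7.22 and 5.89 with low DOX. Dpp6 had 9.34, 9.82 and 9.16 with high DOX and 7.17, 7.79 and 7.26 with low DOX, 4.10-fold higher (2.03, SE 0.316). Kcnip3 had 10.31, 9.92 and 9.99 with high DOX and 8.52, 9.37 and 7.88 with low DOX, and Kcnip1 8.22, 7.90 and 9.0 with high DOX and 6.06, 7.78 and 7.09 with low DOX. Kcnd1, Kcnip2, Kcnip4 and Dpp10, in contrast, overlapped, and each of the 4 was lowest in replicate 3 among the high-DOX tumors.

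**Figure D5:**
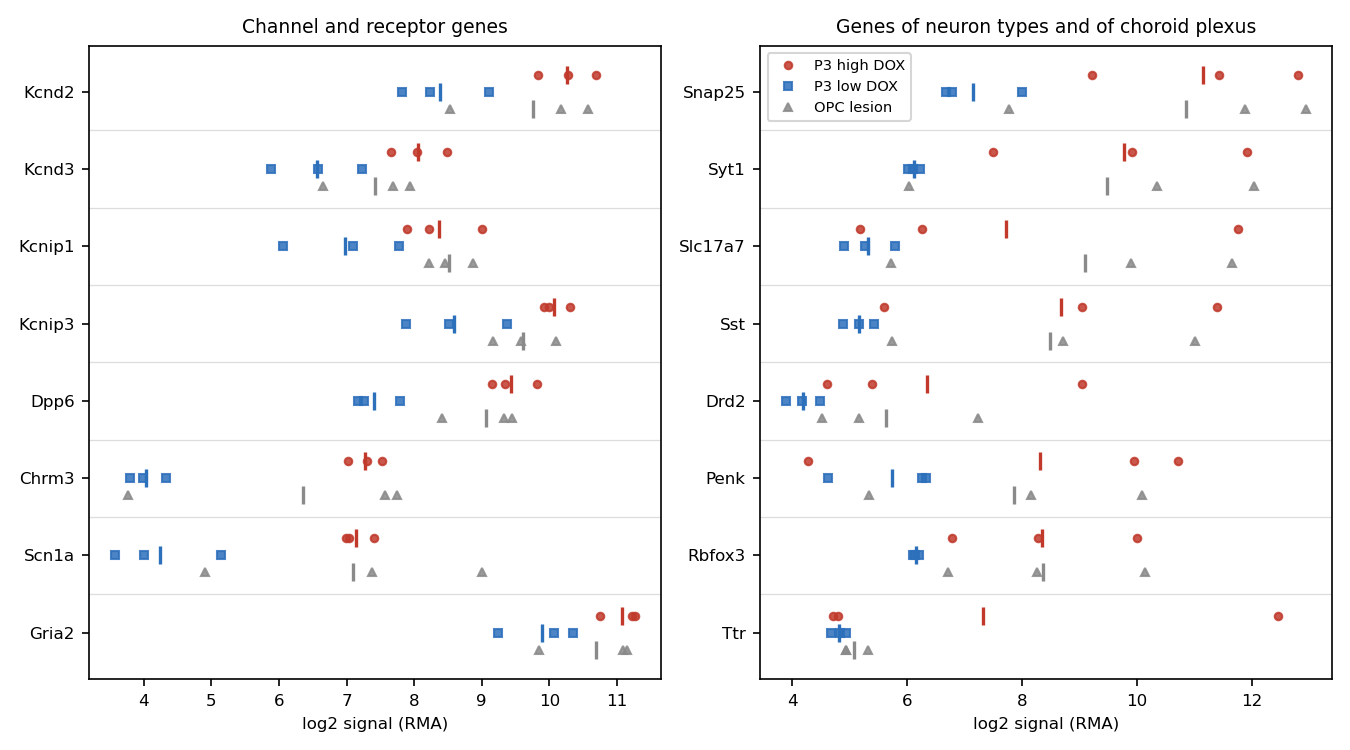
Log2 signal (x axis) of channel and receptor genes (left) and of genes of particular neuron types and of the choroid plexus (right) in P3 high-DOX (red circles), P3 low-DOX (blue squares) and OPC lesion arrays (grey triangles), 1 symbol an array, with ticks for group means. The genes on the left were picked with their values in view, and in them the 3 high-DOX arrays lay above the low-DOX arrays. Other channel genes, among them Kcnd1, Kcnip2, Kcnip4 and Dpp10, overlapped between the diets. Slc17a7 and Ttr were high in 1 high-DOX array.

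Genes of macrophages and microglia were lower with high DOX. Among 16 border macrophage genes, 14 were below 0 with a median of -1.10. Of the 16, 9 were at an unadjusted p under 0.05 and 10 did not overlap, beside 7.76% of all genes. As the list was chosen with earlier results known, this share was not tested as enrichment. Beside Stab1, Ms4a7 and Mrc1 above, Siglec1, a sialic acid receptor of tissue macrophages, had 4.78, 4.81 and 5.32 with high DOX and 8.61, 7.11 and 8.14 with low DOX. Lyve1 and Cd163, also defining genes of border macrophages, were at low signal in both diets, with differences of 0.51 and 0.13. The list median stayed between -1.26 and -0.96 with any P3 array left out.

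Microglia genes divided. The 14 homeostatic genes had a median of -0.75, with 6 at an unadjusted p under 0.05, all lower. Fcrls had 5.77, 6.52 and 5.57 with high DOX and 9.41, 8.88 and 6.88 with low DOX, 5.41-fold lower (-2.43, SE 0.633). Cx3cr1, the fractalkine receptor, had 7.46, 7.76 and 6.56 with high DOX and 9.30, 8.23 and 8.34 with low DOX. Tmem119, a microglia marker, was 1.67-fold lower (-0.74, SE 0.257). P2ry12, however, had 8.44, 8.08 and 5.72 with high DOX and 8.35, 6.84 and 6.90 with low DOX, a difference of 0.05 (SE 0.715) with wide overlap.

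Genes that myeloid cells use to sense and degrade material were lower together. All 12 Fc receptor and Tyrobp genes were below 0 (median -1.51), with 7 at an unadjusted p under 0.05 and 10 without overlap. Fcgr1, the high-affinity IgG receptor, had 6.70, 7.01 and 6.08 with high DOX and 9.40, 8.22 and 8.56 with low DOX, 4.38-fold lower (-2.13, SE 0.638). Tyrobp, a signaling adaptor gene of myeloid cells, had 7.56, 7.08 and 6.30 with high DOX and 8.86, 7.96 and 8.59 with low DOX. All 13 complement genes were below 0 (median -1.41), among them C1qb, with 9.16, 9.05 and 8.58 with high DOX and 11.41, 9.88 and 10.53 with low DOX, and C3ar1 (-2.35, SE 0.8). Of 16 lysosome genes 15 were below 0 and 11 without overlap (median -1.03). Lyz2, lysozyme of myeloid cells, had 8.37, 8.03 and 9.28 with high DOX and 12.12, 11.28 and 12.17 with low DOX, a 9.83-fold difference (-3.30, SE 0.699, adjusted p = 0.376). Apoe, the lipid carrier, was 2.03-fold lower (-1.02, SE 0.284) and the lysosomal membrane gene Lamp1 1.71-fold lower (-0.78, SE 0.239). These groups were lower without low-DOX replicate 1 too, with medians of -1.39 for Fc receptors, -0.98 for complement and -0.70 for lysosome genes.

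Chemokine genes followed the myeloid genes, with 16 of 19 below 0 and 8 without overlap (median -1.07, and -0.57 without low-DOX replicate 3). Cxcl16, a transmembrane chemokine, had 6.15, 6.57 and 7.06 with high DOX and 9.94, 8.21 and 9.24 with low DOX (-2.54, SE 0.777). Ccl12 had 3.96, 4.38 and 4.12 with high DOX, at low signal, and 6.85, 5.91 and 6.25 with low DOX. Ccl8, which attracts monocytes, had 3.29, 3.34 and 3.48 with high DOX, also at low signal, and 6.76, 6.23 and 4.66 with low DOX (adjusted p = 0.376). Ccr2, the receptor of inflammatory monocytes, lay between 3.13 and 6.02 in the 6 tumors and was low signal in both diets. The 12 monocyte and dendritic cell genes had a median of -0.90, with 3 at an unadjusted p under 0.05, all lower.

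Antigen presentation genes were lower in both classes. All 11 class II genes were below 0 (median -1.53, and -1.04 without low-DOX replicate 1), and 4 were at an unadjusted p under 0.05. H2-Aa, the I-A α chain, had 4.25, 5.27 and 6.67 with high DOX and 9.98, 7.24 and 8.21 with low DOX (-3.08, SE 1.1, adjusted p = 0.435). H2-Eb1, an I-E β chain, had 5.62, 6.44 and 7.19 with high DOX and 10.60, 7.52 and 7.76 with low DOX. H2-DMb2, of the peptide loader H2-DM, had 3.71, 3.15 and 3.43 with high DOX and 5.21, 4.48 and 5.77 with low DOX, low signal in both diets. Ciita, the coactivator of class II genes, overlapped, with 5.99, 5.32 and 5.74 with high DOX and 7.53, 5.86 and 6.83 with low DOX.

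H2-Ea, the I-E α chain, broke this pattern. It had 3.49, 3.74 and 3.79 with high DOX and 3.72, 9.47 and 9.97 with low DOX, so that low-DOX replicate 1, the highest tumor for H2-Aa and H2-Eb1, was at low signal for H2-Ea. Each array was left out in turn, and without that tumor the difference was -6.05, with an adjusted p of 0.0256 (limma). As the tumor left out was the low-DOX tumor at low signal for H2-Ea, this outcome follows from its value and is no separate support. As background, mice of the b haplotype of the MHC, such as C57BL/6, carry a deletion that silences this gene. The haplotype of each mouse is not given in the sources used here. For H2-Ea the OPC lesions had 3.50, 4.60 and 3.38.

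Class II genes share a proximal promoter module whose Y box, bound by the factor NF-Y, contains the letters GATTGG. RefSeq windows (GRCm38.p6, 250 bases before to 50 after the start) were at hand for 8 of the 11 class II genes, and 8 of their 9 windows held GATTGG or its reverse complement CCAATC, against 16.1% of 32851 windows of all genes. The match describes the letters only. The windows of the 3 genes with values above and a window are printed 5′ to 3′ in lower case with these letters in capitals, which lie 49 bases before the start in H2-Aa, 60 and 35 in H2-Eb1 and 91 in H2-DMb2. H2-Aa is at chr17:34287774-34288073 (minus strand), H2-Eb1 at chr17:34305617-34305916 (plus) and H2-DMb2 at chr17:34144999-34145298 (plus).
H2-Aa: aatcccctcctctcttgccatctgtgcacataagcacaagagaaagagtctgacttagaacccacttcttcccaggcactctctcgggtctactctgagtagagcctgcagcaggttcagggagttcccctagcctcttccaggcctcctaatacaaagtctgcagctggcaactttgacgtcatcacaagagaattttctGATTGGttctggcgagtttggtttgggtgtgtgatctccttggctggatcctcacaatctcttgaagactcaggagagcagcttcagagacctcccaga
H2-Eb1: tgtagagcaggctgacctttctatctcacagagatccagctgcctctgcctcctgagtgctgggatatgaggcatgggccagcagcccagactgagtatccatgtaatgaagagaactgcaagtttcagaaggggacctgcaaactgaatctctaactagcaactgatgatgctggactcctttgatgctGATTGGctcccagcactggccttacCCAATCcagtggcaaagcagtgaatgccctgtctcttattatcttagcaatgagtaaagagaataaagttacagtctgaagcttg
H2-DMb2: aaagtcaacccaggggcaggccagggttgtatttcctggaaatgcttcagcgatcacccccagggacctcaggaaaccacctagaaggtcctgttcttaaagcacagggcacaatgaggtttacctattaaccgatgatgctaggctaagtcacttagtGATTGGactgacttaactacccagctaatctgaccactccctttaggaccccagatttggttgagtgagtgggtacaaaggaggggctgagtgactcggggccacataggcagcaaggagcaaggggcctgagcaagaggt

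All 12 class I genes were below 0 as well, 10 of them without overlap (median -1.63, and -1.0 without low-DOX replicate 1). B2m, the shared light chain, had 11.33, 10.49 and 11.73 with high DOX and 13.23, 12.52 and 12.51 with low DOX, 2.98-fold lower (-1.57, SE 0.638). The heavy chain H2-K1 had 6.97, 6.90 and 7.73 with high DOX and 11.49, 9.01 and 7.89 with low DOX, mostly through low-DOX replicate 1. Interferon response genes rested on that tumor too. Their median of -0.83 was -0.15 without it, and only Irf1, an interferon-induced transcription factor, was at an unadjusted p under 0.05, with 5.84, 5.58 and 6.38 with high DOX and 8.64, 7.33 and 7.71 with low DOX.

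Lymphocyte genes were near background in most arrays. Of 14 T and NK cell genes 11 were low signal in both diets and 0 were at an unadjusted p under 0.05, and the median of -0.83 was -0.27 without low-DOX replicate 1. Cd3g, a subunit of the T cell receptor complex, had 3.40, 3.43 and 3.59 with high DOX and 6.85, 3.90 and 3.59 with low DOX. Jchain, of secreted antibodies, had 3.14, 3.43 and 3.29 with high DOX and 9.65, 3.44 and 3.37 with low DOX, and so was high in 1 tumor. Other genes of the B and plasma cell list did not stand out there alike. With low DOX, Mzb1 had 5.52, 5.23 and 5.04, at low signal, and Sdc1 7.20, 6.22 and 7.39. Of 12 neutrophil genes 10 were at low signal in both diets.

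Fibroblast genes were lower with high DOX, in large part through low-DOX replicate 3. All 18 fibroblast genes were below 0 (median -1.37, and -0.60 without that array), with 3 at an unadjusted p under 0.05. Col1a1, whose locus carries the receptor transgene, had 6.02, 6.41 and 7.58 with high DOX and 7.53, 7.07 and 12.40 with low DOX, and Col3a1 had 5.22, 4.92 and 7.34 with high DOX and 6.79, 7.34 and 11.58 with low DOX. Col6a2, a microfibril collagen, was spread more evenly, with 6.76, 6.55 and 6.89 with high DOX and 8.83, 7.88 and 9.22 with low DOX, 3.75-fold lower (-1.91, SE 0.457, adjusted p = 0.376). Nid1, the basement membrane linker nidogen, had 7.40, 7.33 and 9.0 with high DOX and 9.07, 9.64 and 10.80 with low DOX, and its second probe set gave -1.96 beside -1.93. The 14 basement membrane genes had a median of -1.04 (-0.78 without low-DOX replicate 3), but 1 was at an unadjusted p under 0.05 and 1 without overlap, a share near that of all genes. Endothelial genes had a median of -0.43 (and -0.15 without low-DOX replicate 2), with Cdh5, VE-cadherin, at -1.25 (SE 0.45) and Plvap, of fenestrated vessels, at 0.48 (SE 0.172). The mural cell median was -0.38 (-0.69 without high-DOX replicate 3), with the contractile gene Acta2 at -2.35 (SE 0.858), highest in low-DOX replicate 3 at 11.14. Matrix proteases and their inhibitors had a median of -0.51, which was -0.16 without low-DOX replicate 3.

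Ligands and receptors of the TGF-β and IGF families split by member. Of 18 genes, 7 were lower and 1 higher at an unadjusted p under 0.05 (median -0.99, and -0.52 without low-DOX replicate 3). Tgfb1 had 7.24, 7.70 and 7.35 with high DOX and 8.65, 8.86 and 9.58 with low DOX, 3.02-fold lower (-1.60, SE 0.405, adjusted p = 0.376). Its receptor genes Tgfbr1 (-1.24, SE 0.312) and Tgfbr2 (-1.82, SE 0.527) were lower with it, both without overlap. Igf1, the ligand of Igf1r and a product of macrophages and microglia in brain, had 4.72, 5.27 and 4.59 with high DOX, at low signal, and 7.36, 6.90 and 7.30 with low DOX (adjusted p = 0.376), so ligand and receptor lay on opposite sides. Bmp7 was the gene on the other side, with 10.21, 9.03 and 10.27 with high DOX and 7.75, 8.50 and 8.23 with low DOX, 3.19-fold higher (1.67, SE 0.458). Wnt and Notch pathway genes had a median of 0.20 over 18 genes (0.06 without high-DOX replicate 3). Lef1 (-0.62, SE 0.158) and Wnt5a (-1.13, SE 0.433) were lower, Wnt5a with high DOX at low signal. Wnt7a (0.88, SE 0.346) was higher, with low DOX at low signal.

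Proliferation genes did not separate the diets. None of 18 mitotic and none of 19 replication genes (0 in both lists) was at an unadjusted p under 0.05, and their medians were 0.14 and 0.08. Mki67 had 9.89, 8.45 and 10.61 with high DOX and 8.91, 9.85 and 9.32 with low DOX. High-DOX replicate 2, the tumor with most neuron signal, was the lowest and replicate 3 the highest of the 6 arrays in the mean of the mitotic list, at 6.46 and 8.62. Without replicate 3 the mitotic median was -0.37, and without replicate 2 it was 0.68, so no direction can be given. The replication median likewise was -0.24 without replicate 3 and 0.40 without replicate 2. Known p53 target genes had a median of 0.01 in these p53-deleted tumors, with 9 of 17 above 0 and 8 below. Without overlap, 2 were higher and 2 lower (11.8% each). Fas, at low signal in both diets, was among the lower (-0.70, SE 0.361). Zmat3 (0.63, SE 0.2) and Plk2 were higher, Plk2, a kinase also induced by neuronal activity, with 9.90, 9.84 and 9.71 with high DOX and 7.45, 8.65 and 8.0 with low DOX (1.78, SE 0.419, adjusted p = 0.376).

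Stmn1, the microtubule destabiliser on which the study centred, had 6.46, 6.99 and 6.68 with high DOX and 6.61, 6.54 and 6.08 with low DOX, a difference of 0.30 (SE 0.232, adjusted p = 0.682) with overlap. Of the 14 stathmin and tubulin genes only Stmn3, a stathmin of neurons, was at an unadjusted p under 0.05. Its values were 10.06, 11.10 and 10.22 with high DOX and 7.94, 8.41 and 7.70 with low DOX, 5.46-fold higher (2.45, SE 0.548, adjusted p = 0.376). Stmn2, another neuronal stathmin, had 7.45, 11.31 and 6.28 with high DOX and 6.39, 5.0 and 10.30 with low DOX and overlapped fully.

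Cholesterol synthesis genes were higher by a small step, with 15 of 16 above 0, a median of 0.50 and 5 at an unadjusted p under 0.05. Srebf2, the transcription factor of the pathway, had 9.62, 9.60 and 10.02 with high DOX and 9.26, 9.09 and 9.09 with low DOX, 1.52-fold higher (0.60, SE 0.171). Fdps, a farnesyl diphosphate synthase, had 8.23, 8.17 and 8.24 with high DOX and 8.14, 7.32 and 7.41 with low DOX, so that low-DOX replicate 1 stood with the high-DOX tumors. Without low-DOX replicate 2 the list median was 0.31, and without replicate 1 it was 0.80. Respiratory chain genes had a median of 0.26, with 17 of 19 above 0 (0.13 without low-DOX replicate 3). Asns, asparagine synthetase of the amino acid stress response, had 9.46, 9.10 and 8.82 with high DOX and 8.15, 8.28 and 7.59 with low DOX, 2.18-fold higher (1.12, SE 0.27, adjusted p = 0.376). The stress list as a whole had a median of 0.24, which was 0.04 without high-DOX replicate 1 and 0.61 without replicate 2. Hypoxia and glycolysis genes lay at 0.04, but at 0.39 without high-DOX replicate 1 and -0.18 without replicate 3. The medians were close to 0 for mitochondrial ribosome genes (3.4e-04) and housekeeping genes (-0.01). With 1 P3 array left out the housekeeping median lay between -0.13 and -0.03. Of its 9 genes, 4 were above 0 and 5 below. Polr2a (-0.62, SE 0.235) was at an unadjusted p under 0.05, and Gusb (-0.69, SE 0.397) was lower without overlap. The 15 immediate early genes had a median of 0.31 (0.62 without high-DOX replicate 1), with 2 higher and 0 lower at an unadjusted p under 0.05. Without overlap, Egr3 (2.25, SE 0.747) was higher and Klf4 (-0.67, SE 0.362), at low signal with high DOX, was lower. These are 6.67% in each direction, below the 8.23% and 7.76% of all genes.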

How the data were processed

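The deposited table holds log2 signals that the authors made from Affymetrix Mouse Gene 2.0 ST arrays by RMA (background correction, quantile normalization and summary by probe set), per the labels and the methods. The methods also name surrogate variable analysis, and whether it entered these values is not given in the sources used here. The table has 41345 probe sets. The 23521 that name 1 gene were kept, and for a gene with several the one with the highest mean over 9 arrays was used. The 1820 that name several genes and the 16004 that name none were left out of all gene counts.

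A linear model over the 3 groups of 3 arrays was fitted with limma 3.58.1 in R 4.3.3, and high minus low DOX was tested with Benjamini-Hochberg adjustment over 22180 genes. The smallest exact two-sided permutation p for 3 arrays against 3 is 0.1, so no single value was tested that way. The labels call the arrays biological replicates. The 10 genes with the smallest p in each direction among those without overlap were named, and further genes came from gene lists or, where the text says so, were picked with their values in view. The members and lists were chosen with earlier results of these data known, and no list was tested as a set. The number of arrays limits the precision. Tables and figures were made with Python 3.11.15, pandas 2.3.3, numpy 2.4.6 and matplotlib 3.10.9. The fit was tested on simulated data.

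Alternatives were array weights, a trended robust prior, quantile normalization, median centring, averaging all probe sets of a gene, no genes of the lowest 25% by mean, the 6 P3 arrays alone, the methods' t-test, the replicate number as a block and leaving out each array. Leaving out high-DOX replicate 2 together with low-DOX replicate 3 or 1 was chosen after seeing the data.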

Additional observations from a re-analysis of the deposited data

How the results depend on the processing

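The counts over all genes moved most with centring and with single arrays. Median centring of each array gave 2025 genes higher and 588 lower at an unadjusted p under 0.05, against 1164 and 1084, and 3433 higher and 921 lower without overlap, against 1825 and 1722. Leaving out high-DOX replicate 2 and low-DOX replicate 3 gave 590 and 579, with 4039 and 3743 without overlap, and leaving out high-DOX replicate 2 and low-DOX replicate 1 gave 878 and 702, with 4502 and 4126. With fewer arrays, more genes are without overlap by construction. With 1 array left out at a time the unadjusted counts ran from 656 (without low-DOX replicate 3) to 1444 higher and from 712 (without high-DOX replicate 1) to 1282 lower, the counts without overlap from 1825 to 3305 and from 1722 to 3245, and the counts at an adjusted p under 0.05 from 0 to 1 in each direction. The genes called were Chrm3 without OPC lesion replicate 2, H2-Ea without low-DOX replicate 1 and Ms4a14 without low-DOX replicate 3. In each case the array left out was the one furthest from the rest of its group for that gene, so these calls follow from the values removed. The cause of the other moves was not tested.

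The replicate block gave 919 higher and 852 lower genes at an unadjusted p under 0.05 and 0 at an adjusted p under 0.05. Arrays with the same number did not deviate together (correlations of -0.10, -0.18 and 0.004), so the numbers do not pair them. The methods' t-test gave 824 higher and 832 lower genes at an unadjusted p under 0.05 and 0 after adjustment.

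Of 50 gene lists, 38 kept the sign of their median under all 18 alternatives. Among the genes named, 28 of 2480 alternative values changed sign, all of genes whose diets overlapped. A gene without overlap cannot change sign when arrays are left out. Alternatives that change only the variance estimate, or leave out an OPC lesion, cannot move a difference or a list median. The counts of unchanged signs are therefore high in part by construction. Without 1 array, Gfap ran from -1.38 to 0.0073, Mir219a-1 from -0.045 to 0.0051, Mir9-3 from -0.16 to 0.29, Mki67 from -0.19 to 0.89, P2ry12 from -0.46 to 0.89, Sox10 from -0.66 to 0.35, Stmn2 from -0.36 to 2.65 and Ttr from -0.071 to 3.80. Without high-DOX replicate 2 and low-DOX replicate 3 the differences were 0.014 for Mir219a-1, -0.061 for Mir9-3, -0.52 for P2ry12, 0.21 for Sox10, -0.0033 for Stmn1 and -0.010 for Ttr. Without high-DOX replicate 2 and low-DOX replicate 1 they were 0.021 for Mir219a-1, 0.41 for Sox10, -0.78 for Stmn2 and -0.14 for Ttr. Array weights gave 0.020 for Mir219a-1 and 0.027 for Sox10, and centring 0.10 for Mir219a-1. Where a group was at low signal, its difference understates any change.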
